A study of Mus musculus with 8 samples.

Results

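The inhibitors described here are encoded by Timp1, Timp2, Timp3 and Timp4, the tissue inhibitors of metalloproteinases (TIMPs), and Reck, which encodes a membrane-anchored inhibitor. They were chosen by symbol, as the TIMP family plus Reck. All 5 were found among the 23420 named genes of the table, and all 5 had reads from both tissues. Limbal rims and corneal buttons were dissected from the eyes of young adult, wild type C57BL/6J mice, with no treatment and no altered gene in either group, and the tissue of each kind was pooled before RNA extraction. The corneal button is the clear cornea, and the limbal rim is the ring that joins it to the sclera and conjunctiva and holds the stem cells of the corneal epithelium. The question was which genes differ between these regions. The labels number 4 samples per tissue, but the values are built from 1 library per tissue. No spread between animals could be measured, no test across replicates was made, and the intervals given are 95% intervals that cover counting error only. In pooled tissue, fewer cells of a type and less RNA per cell cannot be told apart.

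TIMPs are small secreted proteins that block the active site of matrix metalloproteinases (MMPs), the enzymes that cut collagens and other matrix proteins. TIMP1, TIMP2 and TIMP4 are soluble, and TIMP2 also takes part, with MMP14 at the cell surface, in the activation of pro-MMP2. TIMP3 binds to the extracellular matrix and also blocks ADAM17, ADAM10 and the ADAMTS aggrecanases. RECK is held at the cell surface by a lipid anchor, restrains MMP14, MMP2, MMP9 and ADAM10, and serves with the receptor ADGRA2 (GPR124) in WNT7A and WNT7B signalling in vessels.

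The bases just upstream of the start are shown for a soluble, a matrix-bound and the membrane-anchored inhibitor. The messenger level of each differed between the tissues, as did those of Timp2 and Timp4, whose bases are not shown. Whether these bases bear on that difference was not tested. Sequences are from RefSeq, build GRCm38.p6, plus strand, 5′ to 3′, and end at the base before the annotated start. Capitals mark matches to the GC box (GGGCGG) and the CCAAT box (CCAAT), read on both strands. The Timp1 stretch is chrX:20869916-20870165, the Timp3 stretch is chr10:86300162-86300371 and the Reck stretch is chr4:43875280-43875529.
Timp1: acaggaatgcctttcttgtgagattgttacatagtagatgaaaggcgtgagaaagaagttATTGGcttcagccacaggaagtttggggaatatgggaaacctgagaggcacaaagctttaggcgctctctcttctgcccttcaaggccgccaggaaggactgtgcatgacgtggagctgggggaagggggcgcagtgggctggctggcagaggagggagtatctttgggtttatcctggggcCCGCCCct
Timp3: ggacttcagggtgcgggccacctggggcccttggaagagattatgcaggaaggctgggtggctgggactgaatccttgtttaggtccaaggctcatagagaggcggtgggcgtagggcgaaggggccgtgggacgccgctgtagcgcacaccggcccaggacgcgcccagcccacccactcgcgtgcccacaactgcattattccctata
Reck: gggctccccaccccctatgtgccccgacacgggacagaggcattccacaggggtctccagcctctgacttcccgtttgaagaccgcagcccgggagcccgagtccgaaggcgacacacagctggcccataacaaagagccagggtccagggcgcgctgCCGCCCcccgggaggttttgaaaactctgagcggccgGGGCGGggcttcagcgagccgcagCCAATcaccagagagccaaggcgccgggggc
The Timp1 stretch held 1 GC box at positions -8 to -3 from the start and 1 CCAAT box at -190 to -186, both on the minus strand. The Reck stretch held 2 GC boxes, at -92 to -87 and -55 to -50, and 1 CCAAT box at -31 to -27. The Timp3 stretch of 210 bases held neither, and the 1 GC box of its whole RefSeq window lies past the annotated start and is not shown. GC content was 54.4% for Timp1, 63.8% for Timp3 and 68.4% for Reck. Of 32851 upstream windows of 250 bases in the RefSeq table, 32.7% held a GC box and 33.8% a CCAAT box, so both are common. The AP-1 motif (TGANTCA, in 6.75% of windows), the TATA box (TATAAA, 12.4%) and the E-box (CACGTG, 6.02%) were also searched on both strands, and had no match upstream of any of the 5 genes. The window of Timp2 held 1 GC box and 1 CCAAT box, and that of Timp4 held neither. The motif set was chosen after these sequences had been seen, and the absence of the letters says nothing about a factor.

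All 5 inhibitor genes had more reads in the limbus library than in the cornea library, and all 5 were at least 2-fold higher there. Across the 15569 genes with more than 3 reads in at least 1 library, 20.8% were at least 2-fold higher in the limbus and 8.84% at least 2-fold higher in the cornea, with a median log2 ratio of 0.01 for limbus over cornea. For these counts, read numbers of 3 or below were raised to 3. Timp1 and Timp4, with 2 reads and 1 read in the cornea, passed the filter through the limbus library alone. The log2 ratios of the 5 genes then ran from 1.84 to 5.03, with a median of 2.42. They fell into an abundant pair, Timp2 and Timp3, and a scarce trio, Timp1, Timp4 and Reck.

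**Figure D1:**
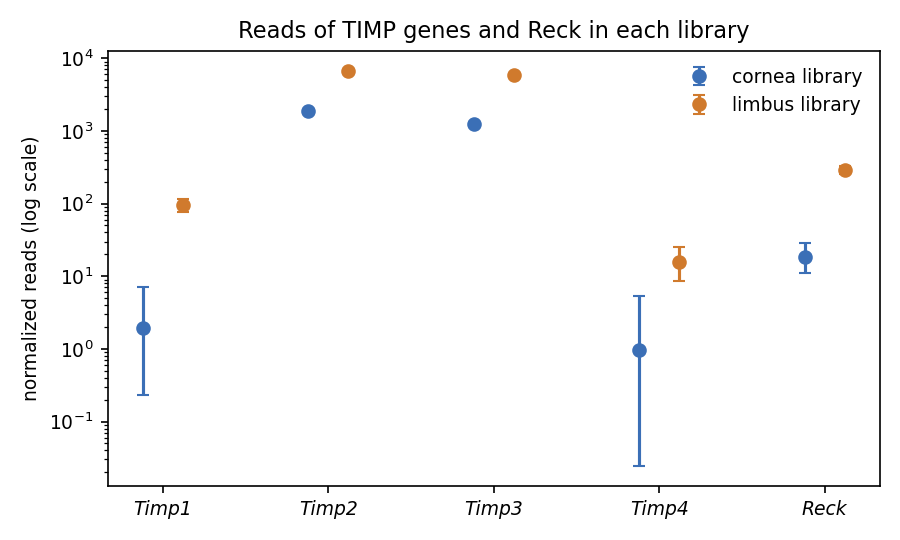
Normalized reads (log scale) of the 4 TIMP genes and Reck in the cornea library and in the limbus library. Points are 1 library each and bars are exact 95% counting intervals, which are narrower than the point for Timp2 and Timp3. Every gene sits higher in the limbus, and Timp1 and Timp4 rest on 2 reads and 1 read in the cornea.

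Timp2 had 1912 corneal and 6388 limbal reads, out of library totals of 26104317 and 21182025 on all named genes. It was the most highly expressed of the 5 genes in both tissues, at 18.8 RPKM in the cornea against 77.4 RPKM in the limbus. RPKM, reads per kilobase of exon scaled to the library's total reads, compares genes within a library. Ratios between libraries use the size factors of the table, and quotients of limbal over corneal RPKM, the sums below included, come out higher than these by 0.21 on the log2 scale. After size factors, Timp2 was 3.57-fold higher in the limbus, a log2 ratio of 1.84 (95% interval 1.76 to 1.91). Of the genes measured, 87.5% had a lower ratio. Timp2 lies on the minus strand of chromosome 11, from 118301069 to 118355740 in GRCm38.

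Timp3, whose protein stays in the matrix, had 1290 corneal and 5749 limbal reads. It was 4.76-fold higher in the limbus, a log2 ratio of 2.25 (95% interval 2.16 to 2.34), above 90.3% of the genes. Its level was 6.07 RPKM in the cornea against 33.3 RPKM in the limbus. The Timp3 log2 ratio exceeded that of Timp2 by 0.42 (95% interval 0.30 to 0.53), so the abundant pair differed beyond counting error. The gene spans 86300372 to 86349506 on the plus strand of chromosome 10.

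Timp1, a soluble inhibitor that many cells make in response to cytokines, had 2 corneal and 92 limbal reads. The ratio was 49.2-fold, or 5.62 on the log2 scale (95% interval 3.73 to 8.69), and with the cornea set to 3 reads it was 5.03 and exceeded 99.1% of the genes. With a pseudocount of 1 normalized read it was also 5.03. Its level was 0.0863 RPKM in the cornea against 4.89 RPKM in the limbus. In the limbus Timp1 was above Reck and Timp4 per length, and in the cornea it was close to the limit of detection. Timp1 spans 20870166 to 20874735 on the plus strand of chromosome X.

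Timp4, the member known for its narrow tissue range, had 1 corneal and 15 limbal reads. Its ratio was 16.0-fold, with a log2 value of 4.003, but the 95% interval ran from 1.30 to 9.40. It was 3.07 with a pseudocount of 1 normalized read and 2.42 with the cornea set to 3 reads. Its levels, 0.0065 RPKM in the cornea against 0.120 RPKM in the limbus, were the lowest of the 5 genes in both tissues. Timp4 spans 115241892 to 115252205 on the minus strand of chromosome 6.

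Reck, the membrane-anchored inhibitor, had 19 corneal and 279 limbal reads. It was 15.7-fold higher in the limbus, a log2 ratio of 3.97 (95% interval 3.30 to 4.73), above 97.7% of the genes. Its level was 0.152 RPKM in the cornea against 2.76 RPKM in the limbus. Reck spans 43875530 to 43944806 on the plus strand of chromosome 4.

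**Figure D2:**
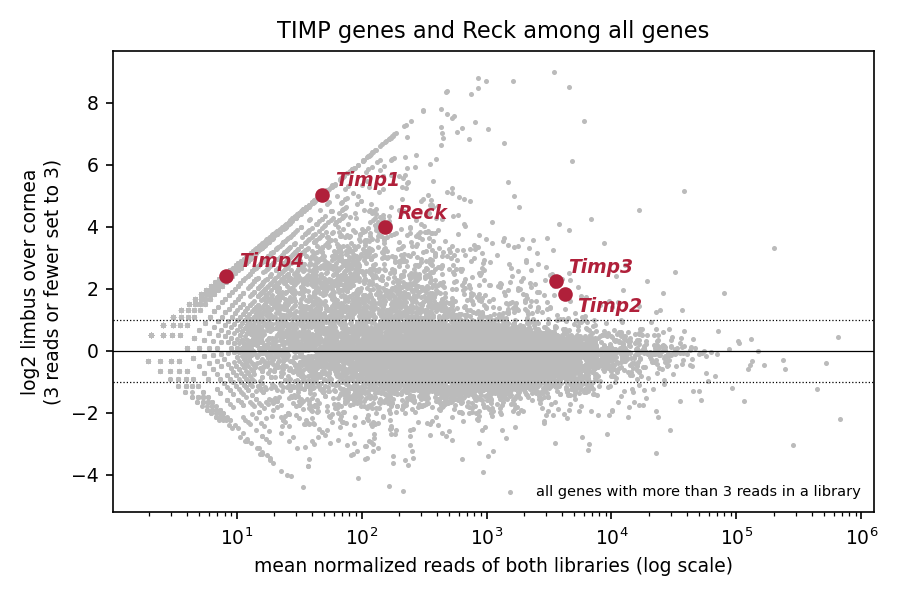
Log2 ratio of limbus over cornea (3 reads or fewer set to 3) against the mean of normalized reads of both libraries (log scale). Grey points are the 15569 genes measured, red points are the 5 inhibitor genes, and dotted lines mark 2-fold. Timp2 and Timp3 sit among well-read genes at ratios of 1.84 and 2.25, and Timp1 and Timp4 lie on the edge set by the floor of 3 reads.

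By log2 ratio the order was Timp1, Timp4, Reck, Timp3 and Timp2. Counting error left the first 3 unordered. Timp1 exceeded Timp4 by 1.62 (95% interval -4.36 to 5.94) and Reck by 1.65 (95% interval -0.45 to 4.82), and Timp4 exceeded Reck by 0.03 (95% interval -2.82 to 5.50). Timp4 also could not be told from Timp3 (difference 1.75, 95% interval -0.95 to 7.15) or from Timp2 (2.17, 95% interval -0.54 to 7.56). Reck was above Timp3 by 1.72 (95% interval 1.04 to 2.48). These are exact conditional intervals of the ratio between 2 genes' read ratios, and they do not depend on the scaling between libraries. The pairs of genes compared here and below were chosen after the reads had been seen.

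The make-up of the TIMP messenger pool, the summed RPKM of the 4 TIMP genes, was dominated by Timp2 in both tissues. The sum was 24.96 RPKM in the cornea against 115.7 RPKM in the limbus. Timp2 made up 75.3% of the pool in the cornea and 66.9% in the limbus. Timp3 made up 24.3% and 28.8%, Timp1 0.346% and 4.23%, and Timp4 0.026% and 0.104%. Of Timp2 and Timp3 together, Timp3 was 24.4% in the cornea (exact 95% interval 23.1 to 25.7) and 30.1% in the limbus (29.3 to 30.9), intervals that do not overlap. Timp3 has a long set of merged exons (8144 bases, against 4722 for its longest transcript), and with the longest transcript its share was 34.6% and 41.4%.

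**Figure D3:**
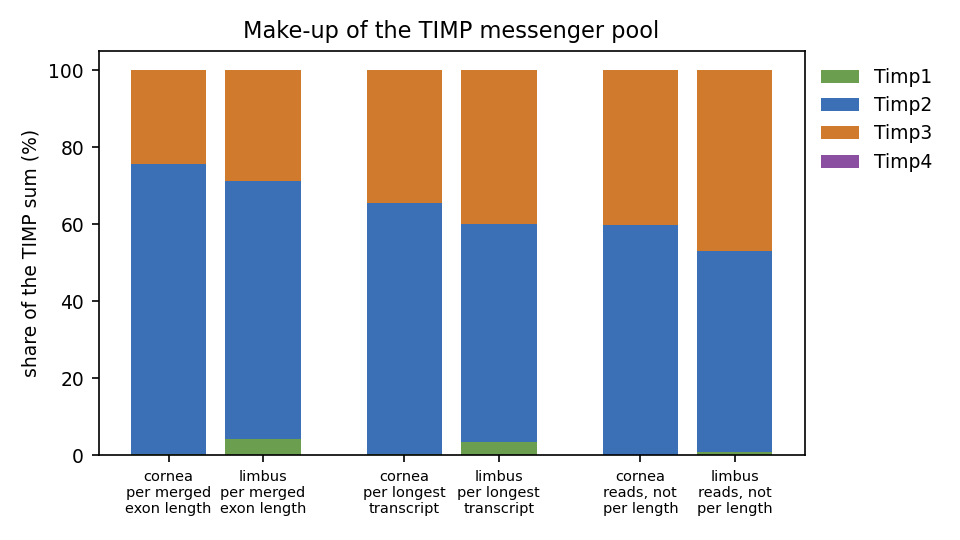
Share of the summed TIMP level (%) taken by each TIMP gene in the cornea and limbus libraries, with 3 ways to allow for gene length. Timp2 is the largest share in every bar and Timp3 the next, while Timp4 is too small to see.

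Each of the TIMP genes except Timp2 lies inside a synapsin gene on the opposite strand, a known nesting of these families. Timp1 lies in Syn1 with 0 shared exon bases, Timp3 in Syn3 with 1733 and Timp4 in Syn2 with 90. The kit marks strand, but whether the counting used strand is not given in the sources used here. Syn1 had 0 corneal and 9 limbal reads, Syn2 7 and 22, and Syn3 191 and 135. Syn3 was thus slightly higher in the cornea after size factors (log2 ratio -0.40, 95% interval -0.73 to -0.08), and the Timp3 ratio exceeded it by 2.66 (95% interval 2.32 to 2.997). For Timp4 the difference from Syn2 was 2.25 with a 95% interval of -0.98 to 7.84. Timp4 also lies inside Gm17482 on the opposite strand, with 0 shared exon bases. Cep295nl, which lies inside Timp2 on the same strand, was not found among the named genes and so has no reads here.

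Among the matrix metalloproteinases, the main targets of TIMPs, 11 of 18 measured genes were at least 2-fold higher in the limbus. Only 1 was at least 2-fold higher in the cornea and 6 were neither, with a median log2 ratio of 1.57. The shares of all genes were 20.8% and 8.84%. Of the 11, Mmp9, Mmp17, Mmp25 and Mmp27 passed the filter of more than 3 reads through the limbus library alone. With a mean of at least 10 normalized reads, 8 genes were higher in the limbus by that fold. The share of all genes was not computed for that filter. Of the 23 genes on this list, 3 were listed at 0. Mmp3, a stromelysin, had 26 corneal and 8779 limbal reads, and was the most highly expressed MMP gene in the limbus at 230.1 RPKM. Mmp2, a gelatinase, had 1275 and 3637 reads (log2 ratio 1.61, 95% interval 1.52 to 1.70). Mmp15 had 649 and 2120 reads, Mmp23 85 and 338, Mmp11 23 and 94, and Mmp19 33 and 89. Mmp9, the other gelatinase, had 3 and 30. Mmp10 had 28 and 2 reads and was the only 1 of the 18 at least 2-fold higher in the cornea, and Mmp28 had 528 and 271 (log2 ratio -0.87).

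Mmp14, the membrane-type protease that TIMP2 and RECK bind, had 4339 corneal and 4187 limbal reads, a log2 ratio of 0.04 (95% interval -0.02 to 0.11). The Timp2 ratio exceeded that of Mmp14 by 1.79 on the log2 scale (95% interval 1.70 to 1.89). Per kilobase, Timp2 was 0.674 times the level of Mmp14 in the cornea and 2.33 times in the limbus, so that the order of the pair differed between the tissues. With the longest transcript as length these were 0.385 and 1.33. Against Mmp2, Timp2 moved little, from 1.30 to 1.52 times the Mmp2 level, a log2 difference of 0.23 (95% interval 0.11 to 0.35). The Reck ratio exceeded that of Mmp14 by 3.93 (95% interval 3.25 to 4.68). Timp1 could not be told from Mmp9, a protease it is known to bind (difference 2.20, 95% interval -1.01 to 5.82).

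The ADAM list, membrane proteases that shed surface proteins, had 9 measured genes. Of these, 5 were at least 2-fold higher in the limbus (20.8% of all genes), 0 in the cornea (8.84% of all genes) and 4 neither. Their median log2 ratio was 1.38. Of the 5 higher in the limbus, Adam12, with 2 corneal and 13 limbal reads, passed the filter of more than 3 reads through the limbus library alone. The 2 sheddases that TIMP3 is best known to block were lower in the limbus by less than 2-fold. Adam17 had 2848 corneal and 1791 limbal reads (log2 ratio -0.57, 95% interval -0.66 to -0.49), and Adam10 had 2341 and 1333 (-0.72, 95% interval -0.82 to -0.62). Timp3 was 0.398 times the level of Adam17 in the cornea and 2.82 times in the limbus (0.429 and 3.04 with the longest transcript), and its ratio exceeded that of Adam17 by 2.83 (95% interval 2.70 to 2.95) and that of Adam10 by 2.97 (95% interval 2.84 to 3.10). Reck exceeded Adam10 by 4.69 (95% interval 4.01 to 5.45). Adam28 had 727 and 1765 reads, Adam33 51 and 343, Adam8 22 and 159, and Adam19 20 and 88. Adam15 (2686 and 3025) and Adam9 (1566 and 830) were within 2-fold.

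The ADAMTS list holds proteases that cut aggrecan and versican. All 7 measured genes were at least 2-fold higher in the limbus, against 20.8% of all genes. Their median log2 ratio was 3.47, though their levels were low. Adamts4, Adamts8, Adamts15 and Adamts20 passed the filter of more than 3 reads through the limbus library alone. With a mean of at least 10 normalized reads, 5 genes were higher by that fold. The share of all genes was not computed for that filter. Adamts1 had 26 corneal and 151 limbal reads, Adamts4 2 and 57, Adamts5 9 and 95, Adamts9 5 and 52, Adamts15 2 and 89, Adamts8 0 and 8, and Adamts20 0 and 7. With reads of 3 or below raised to 3, Adamts8 (log2 ratio 1.51) and Adamts20 (1.32) lay below Timp3, and the interval of Adamts1 (2.63, 95% interval 2.03 to 3.29) overlapped that of Timp3. Only Adamts4 and Adamts5 were compared with Timp3 directly. The Timp3 ratio was lower than that of Adamts5 by 1.24 on the log2 scale (difference -1.24, 95% interval -2.42 to -0.25) and lower than that of Adamts4 (difference -2.68, 95% interval -5.76 to -0.75). Per kilobase, Timp3 was 190 times the level of Adamts5 in the cornea and 80.2 times in the limbus, and 328 and 138 times with the longest transcript as length.

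**Figure D4:**
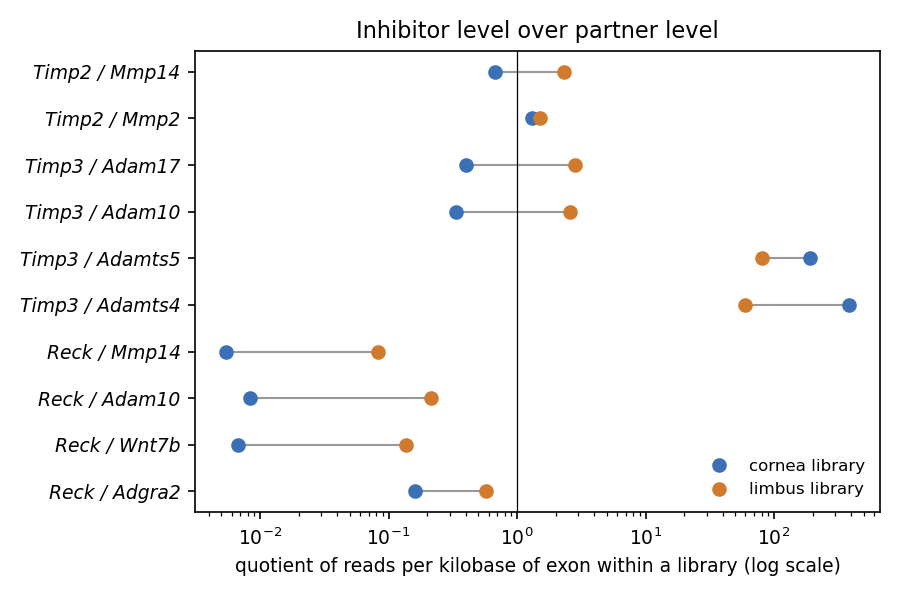
Quotient of an inhibitor's level over that of a partner (reads per kilobase of exon within a library, log scale) in the cornea library and the limbus library, joined by a line. Timp2 over Mmp14 goes from 0.674 to 2.33 and Timp3 over Adam17 from 0.398 to 2.82, across the line of equal levels, whereas Timp3 over Adamts4 and Adamts5 is lower in the limbus.

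The summed TIMP level was 0.447 times the summed MMP level in the cornea and 0.333 times in the limbus. Mmp14 made up 49.9% of the MMP sum in the cornea and Mmp3 made up 66.2% in the limbus. Without the gene with the highest level in each tissue, the quotients were 0.892 and 0.985, and without Mmp3 in both they were 0.451 and 0.985. With the longest transcript as length, they were 0.367 and 0.372. The order of the tissues in this quotient therefore depended on Mmp3 and on the length used, and messenger levels are not a measure of protease activity.

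Of 10 measured binding partners of TIMPs and RECK, 2 were at least 2-fold higher in the limbus, 1 in the cornea and 7 neither, close to the shares of all genes (20.8% and 8.84%), and their median log2 ratio was -0.01. Cd63, a tetraspanin that binds TIMP1, had 890 corneal and 1990 limbal reads, and the Timp1 ratio exceeded its ratio by 4.36 (95% interval 2.46 to 7.43). Adgra2, the RECK co-receptor, had 143 and 583 reads, a log2 ratio of 2.12 (95% interval 1.86 to 2.40), and the Reck ratio exceeded it by 1.85 (95% interval 1.12 to 2.65). Wnt7b, a ligand of the RECK complex, had 2876 and 2084 reads (log2 ratio -0.37, 95% interval -0.45 to -0.29), and Wnt7a had 0 and 2. Fzd4, a frizzled receptor of that pathway, had 413 and 122 and was the partner at least 2-fold higher in the cornea. Efemp1, a matrix protein that binds TIMP3, had 10176 and 9790 reads (log2 ratio 0.04), and Itgb1, an integrin chain, 5303 and 3903 (-0.35).

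Of the genes that activate proteases, 2 of 7 measured were at least 2-fold higher in the limbus, against 20.8% of all genes, and 5 were neither, with a median log2 ratio of 0.71. Plaur, the urokinase receptor, had 14 corneal and 52 limbal reads, and Pcsk5, a proprotein convertase, 20 and 76. Bsg, an inducer of MMPs, had 8464 and 8909. A list of 18 measured genes related to protease inhibition in the matrix also holds genes that do not inhibit proteases (Pcolce, Pcolce2, Serpinf1 and Serpinh1). Of the 18, 11 were at least 2-fold higher in the limbus (20.8% of all genes), 1 in the cornea (8.84% of all genes) and 6 neither. Their median log2 ratio was 1.39. Serpine2 had 8 and 859 reads, Serping1, the C1 inhibitor, 1415 and 7484, and Serpinf1 2978 and 9232. Pcolce, a procollagen C-proteinase enhancer, had 1367 and 5453, Thbs1 968 and 3129, Thbs2 1016 and 3117, and Cst3 3005 and 5885. A2m, which traps proteases of many kinds, was higher in the cornea instead, with 23888 corneal and 7030 limbal reads (log2 ratio -1.67, 95% interval -1.71 to -1.63).

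**Figure D5:**
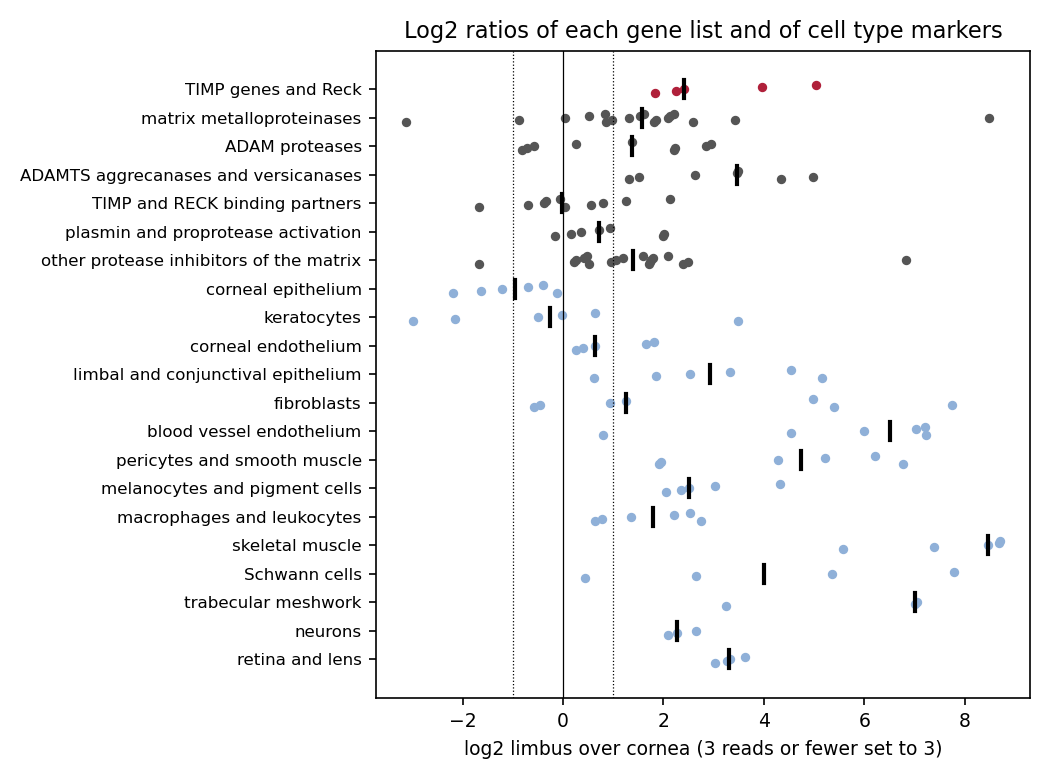
Log2 ratio of limbus over cornea (3 reads or fewer set to 3) for each gene of the lists, with 1 point per gene and a bar at the median. Red points are the TIMP genes and Reck, dark points are protease and partner lists, and pale points are cell type markers, and dotted lines mark 2-fold. The 5 inhibitor genes lie between 1.84 and 5.03, the partner list centres on -0.01, and the vessel, muscle and trabecular markers reach higher ratios.

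The tissues carried the markers of their labels. Krt12, the keratin of the corneal epithelium, had 1137735 corneal and 233324 limbal reads, and Krt15, a keratin of the limbal epithelium, 37738 and 353826. Of the corneal epithelium markers, 0 of 6 were at least 2-fold higher in the limbus and 3 of 6 in the cornea. For these and the marker counts that follow, the shares of all genes were 20.8% in the limbus and 8.84% in the cornea. Cdh5, Tek, Emcn, Des, Pi16, Sox10 and Tubb3, counted below, passed the filter of more than 3 reads through the limbus library alone. Many markers of other cell types were also higher in the limbus, but some were lower there, such as Kera, Aldh1a1, Pdgfra and Dpt. The part of these cell types in the results was not tested. Of the blood vessel endothelium markers, 5 of 6 were at least 2-fold higher in the limbus, with a summed level of 0.856 RPKM in the cornea against 18.5 RPKM in the limbus. All 6 markers of pericytes and smooth muscle were higher by that fold, with sums of 2.78 and 33.8 RPKM and Des at 0 in the cornea, and all 5 of skeletal muscle, with 0.541 and 159.8 RPKM. Of the fibroblast markers 4 of 7 were higher in the limbus, with sums of 196.8 and 400.7 RPKM. Of the keratocyte markers, 1 of 6 was higher in the limbus and 2 of 6 (Kera and Aldh1a1) in the cornea, with sums of 696.5 and 692.9 RPKM. Macrophage markers (4 of 6, 65.9 and 150.02 RPKM), melanocyte markers (5 of 5, 3.34 and 25.4 RPKM), trabecular meshwork markers (3 of 3, 21.9 and 276.1 RPKM) and markers of retina and lens (4 of 4, 15.9 and 204.0 RPKM) were also higher in the limbus. So were 5 of 6 limbal and conjunctival epithelium markers (2038 and 16720 RPKM), 3 of 4 Schwann cell markers (20.05 and 53.4 RPKM), all 3 measured neuron markers (0.176 and 1.03 RPKM) and 2 of 5 corneal endothelium markers (125.03 and 222.1 RPKM). Rbfox3, a further neuron marker, had 0 corneal and 2 limbal reads, too few to be counted among the 3.

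Set against the measured markers of whole lists, with reads of 3 or below raised to 3, the inhibitors fell inside the range of some lists and outside others. Fibroblast markers had log2 ratios from -0.58 to 7.75, and 3 of 7 (Col3a1, Pi16 and Thy1) exceeded Timp2, Timp3 and Reck while 4 of 7 (Col1a1, Col1a2, Dpt and Pdgfra) lay below all 5 inhibitor genes. Keratocyte markers ran from -2.99 to 3.49, and 5 of 6 lay below all 5 genes, the exception being Ptgds. Of the markers of pericytes and smooth muscle, from 1.90 to 6.76, all 6 exceeded Timp2, and 4 of 6 exceeded Timp3 and Reck. Of the blood vessel markers, from 0.81 to 7.23, 5 of 6 exceeded Timp2, Timp3 and Reck and only Kdr lay below them. These positions are described without a test.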

How the data were processed

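Total RNA of pooled limbal rims and corneal buttons was sequenced, and CLC Genomics Workbench was used by the authors for mapping (GRCm38, mm10) and for normalization with trimmed means of M-values. What the authors deposited is a table with, for each gene, a mean normalized signal over both tissues, a log2 fold change of cornea over limbus and its standard error, here treated as a score. The table also holds p-values, which were not used. It is named as DESeq output, and the ratios here use its size factors, not trimmed means of M-values. It gives no values per sample, so the labels' 4 samples per tissue could not be separated.

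The deposited mean signal is built from whole reads of 2 libraries (109 cornea reads weigh as much as 102 limbus reads). For 6143 genes only 1 combination of cornea and limbus reads gives the mean, and for 11299 there are several. The deposited log2 fold change and standard error were used only to choose among these pairs, by the misfit of the predicted standard error, and are not reported. For 3227 genes that this did not part clearly, the pair was chosen with a fitted dispersion, which changed 12 genes. That rule was revised 2 times after values had been seen, with the library totals of an earlier analysis of the same table in view, so its match to those totals is no independent check. Timp1 and Timp4 allow 1 pair. For Timp2 and Timp3 the next best pair missed the standard error by 819 and 3375 times as much. Those pairs would give log2 ratios of 7.20 and 6.33. The neighbouring pairs, further off, would give 1.73 to 1.94 and 2.11 to 2.40. Timp2 was 1 of the 3227 genes sent to the dispersion step, which kept its pair of least misfit. The log dispersion of that pair lay 0.008 from the fitted one, against 0.217 for the next best pair. For Reck no other pair could give the deposited standard error. On simulated data for limbus against cornea, all 17009 genes were recovered, but only 2 of them needed the dispersion step. The simulation took the fitted size factors as given, and only 197 genes were given a difference between the tissues. Those differences were smaller than the log2 ratios of Timp1, Timp3, Timp4 and Reck, so the recovery does not cover such genes. The reads given are therefore derived values. The accession column was out of register with the gene names (2 accessions on their own gene's row), so genes were taken by name.

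The members and lists were chosen with earlier results of these data known. Genes named are the members, listed partners, and list genes at least 2-fold apart with at least 50 reads in 1 library or with the most reads. Others named for contrast, such as Mmp10, were chosen after their values were seen. Intervals are exact at the 95% level and cover counting error only, and reads were taken as independent although copies made in amplification are not. Lengths are from GENCODE annotation of GRCm38. Alternatives were other scalings, a pseudocount, filters, a fold of 1.5 and other lengths. Python 3.11.15, numpy 2.4.6, scipy 1.17.1 and pandas 2.3.3 were used.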

Additional observations from a re-analysis of the deposited data

How the results depend on the processing

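With 1 library per tissue, no result has a check between animals, and leaving out a replicate could not be run. No paired analysis was possible because the table gives no value per numbered sample. All 5 inhibitor genes were higher in the limbus under every scaling tried and with a pseudocount of 1, which gave log2 ratios of 3.07 for Timp4 and 5.03 for Timp1. Scaling to total reads added 0.21 to every log2 ratio, total reads without the 10 most-read genes added 0.13 and a trimmed mean added 0.017. Because each of these scalings raised every ratio, none could have reversed a gene that was higher in the limbus. Timp2 then had log2 ratios of 2.04 and 1.97, and Timp3 of 2.46 and 2.38, under the first and second of these. A mean of at least 10 left 4 of the 5 genes. With that filter, the genes at least 2-fold higher in the limbus numbered 8 for the MMP list, 4 for the ADAM list and 5 for the ADAMTS list. In the TIMP pool, the longest transcript gave Timp2 65.2% (cornea) and 56.5% (limbus) and Timp3 34.5% and 40.0%, and reads not divided by length gave Timp2 59.7% and 52.2%, Timp3 40.2% and 47.0% and Timp1 0.751% in the limbus. The quotient of TIMP over MMP levels became 0.367 (cornea) and 0.372 (limbus) with the longest transcript, and 0.892 and 0.985 without the highest MMP gene of each tissue. Level quotients with the longest transcript, an alternative chosen after seeing the data, moved by over 1.5 times, among the pairs plotted, for Timp2 over Mmp14 (0.385 and 1.33), Timp3 over Adam10 (0.536 and 4.20), Timp3 over Adamts4 (599.5 and 93.7), Timp3 over Adamts5 (328 and 138) and Reck over Mmp14 (0.00312 and 0.0474). With a fold of 1.5, the genes higher in the cornea numbered 2 for the MMP list, 2 for the ADAM list and 2 for the partners. Those higher in the limbus numbered 14, 5 and 3 for these lists and 4 for the protease activators. The share of all genes was computed neither for this fold nor for a mean of at least 10, so these counts have no background. Timp4 and Timp1 are limited by depth, with 1 and 2 reads in the cornea.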
